A study of Homo sapiens with 4 samples.

Results

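The 10 genes described here encode the enzymes that make serine and asparagine and those that carry the one-carbon unit of serine through the folate cycle. They are PHGDH, PSAT1, PSPH, SHMT1, SHMT2, MTHFD1, MTHFD2, MTHFD1L, ALDH1L2 and ASNS. They were taken by name from known biochemistry, with earlier results of these data known. All 10 were found among the 62700 genes of the count tables and passed the filter on low counts, which 18139 genes passed. RNA-seq of poly(A) RNA was made from HEK293T, a human embryonic kidney line, after transfection of RPB1, which is the catalytic subunit of RNA polymerase II (Pol II). In T4A cells, threonine 4 in the repeats of the C-terminal domain (CTD) of RPB1 was replaced by alanine, and in WT cells the CTD was wild type. Both constructs resist α-amanitin, which was given to both groups at 2.5 µg/ml for 48 hours from 1 day after transfection to remove endogenous Pol II. Each group had 2 libraries and neither was left without the toxin, so both groups are transiently transfected cells under α-amanitin. The study calls the libraries of a group biological replicates, and the labels do not say whether they came from separate cultures, so each p-value reflects only the spread between these libraries.

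Serine is made from the glycolytic intermediate 3-phosphoglycerate in successive steps by PHGDH, PSAT1 and PSPH. SHMT2 in mitochondria and SHMT1 in the cytosol then split serine into glycine and a one-carbon unit bound to tetrahydrofolate. In mitochondria the unit is oxidised by MTHFD2 and released as formate by MTHFD1L, or burnt to CO2 by ALDH1L2, whereas cytosolic MTHFD1 takes formate up again for the synthesis of purines and thymidylate. ASNS makes asparagine from aspartate and glutamine. The transcription factor ATF4 is a known activator of many of these genes, and they serve as a readout of the amino acid and mitochondrial stress responses in human cell lines.

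Depth ranged between 19257217 and 23465029 counts per T4A library and between 24695291 and 33063535 counts per WT library. POLR2A, the gene of RPB1, had 5378 and 5477 counts per 1000000 (CPM) in T4A libraries, against 3772 and 2764 CPM in WT libraries. POLR2A was called higher in T4A cells (log2 fold change 0.73, edgeR adjusted p = 7.2e-07), and its part in the results below was not tested. A gene count does not show which CTD the transcript encoded, so it is no check of the labels. Of 8 genes chosen as marks of HEK293T cells, 6 reached 1 CPM, LHX1 stayed below 1 CPM and PAX8 was at 0 in all 4 libraries. No haematopoietic or endothelial marker that was matched reached 1 CPM. The 4 fibroblast markers, with COL1A2 at 0, summed to 30.7 to 31.8 CPM in T4A libraries, against 34.8 to 37.0 CPM in WT libraries, and the 3 hepatocyte markers to 1.45 to 3.46 CPM in T4A libraries, against 1.16 to 1.796 CPM in WT libraries. Their part in the results was not tested. Values below are CPM after TMM scaling, which are shares of a library, so that fewer cells of a kind and less RNA per cell cannot be told apart.

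The promoters of 7 of the 10 genes are in the RefSeq table for GRCh38.p14, and those of PSPH, SHMT2 and ALDH1L2 are not. The 120 bases before the start site are shown, 5′ to 3′, for 6 genes whose promoters differ in the letters that known regulators of this pathway read. Capitals mark the C/EBP-ATF response element TGATGNAA, to which ATF4 binds, the E-box CACGTG, to which MYC binds, and the CCAAT box, to which NF-Y binds, each searched on both strands.
PHGDH, chr1:119711814-119711933, plus strand: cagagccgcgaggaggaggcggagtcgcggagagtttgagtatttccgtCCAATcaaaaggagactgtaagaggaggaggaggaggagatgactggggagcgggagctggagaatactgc
PSAT1, chr9:78297005-78297124, plus strand: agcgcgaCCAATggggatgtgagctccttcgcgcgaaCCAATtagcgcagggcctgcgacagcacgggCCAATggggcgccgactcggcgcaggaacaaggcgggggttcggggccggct
MTHFD1, chr14:64388233-64388352, plus strand: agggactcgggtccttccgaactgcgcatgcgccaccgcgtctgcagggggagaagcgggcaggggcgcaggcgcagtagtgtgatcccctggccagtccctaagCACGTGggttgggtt
MTHFD1L, chr6:150866327-150866446, plus strand: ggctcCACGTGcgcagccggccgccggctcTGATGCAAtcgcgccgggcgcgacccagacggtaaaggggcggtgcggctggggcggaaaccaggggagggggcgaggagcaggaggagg
MTHFD2, chr2:74198495-74198614, plus strand: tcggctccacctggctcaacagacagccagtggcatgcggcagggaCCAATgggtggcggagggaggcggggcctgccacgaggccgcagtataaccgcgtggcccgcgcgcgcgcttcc
ASNS, chr7:97872409-97872528, minus strand: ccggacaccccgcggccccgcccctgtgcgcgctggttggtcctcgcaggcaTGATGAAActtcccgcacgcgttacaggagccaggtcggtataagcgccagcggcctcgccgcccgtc
The ASNS promoter, shown for 1 of its 2 listed starts, held TGATGAAA 68 bases before the start. That of MTHFD1L, shown for 1 of its 4 listed starts, held TGATGCAA 90 bases and the E-box 115 bases before the start. No match to TGATGNAA was found in the 300 bases, 250 before and 50 after the start, of the other 5 genes, whereas 3.62% of the 35116 promoters in the table hold one. The E-box was in the windows of MTHFD1 and MTHFD1L and in 7.26% of all promoters. The CCAAT letters were in the 300 bases of at least 1 listed start for 6 of the 7 genes, and 34.6% of all promoters hold them. Those of MTHFD1 (216 bases before and 35 bases after the start) and MTHFD1L (154 bases before the shown start) lie outside the printed bases. For all 3 motifs the shares count promoters and the members are counted as genes, some with several starts, so the 2 are unlike units. PSAT1 had 3 CCAAT boxes, at 113, 83 and 52 bases before the start, and PHGDH had 1, at 71 bases. These matches describe the letters only.

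In T4A cells compared with WT cells, 3 of the 10 genes rose and 3 fell at an edgeR adjusted p under 0.05, and 4 did not pass the test. PHGDH, PSPH and SHMT2 rose. ALDH1L2, MTHFD1 and MTHFD2 fell. Of all 18139 genes tested, 10.7% rose and 13.0% fell. Because the 10 genes were chosen with earlier results of these data known, setting them beside these shares is no test of the set. The median log2 fold change of the 10 genes was −0.0032, against −0.0066 for all genes tested. Both T4A libraries lay above both WT libraries for 3 of the 10 genes and below them for 4, and this held for 28.5% (above) and 30.5% (below) of all genes. The median and the 4 genes below include ASNS, whose difference, as described later, cannot be read from these data. Among all called genes, 45.1% were higher in T4A cells with TMM scaling, 61.0% with upper quartile scaling and 31.2% with library totals, so small changes depend on the scaling.

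**Figure D1:**
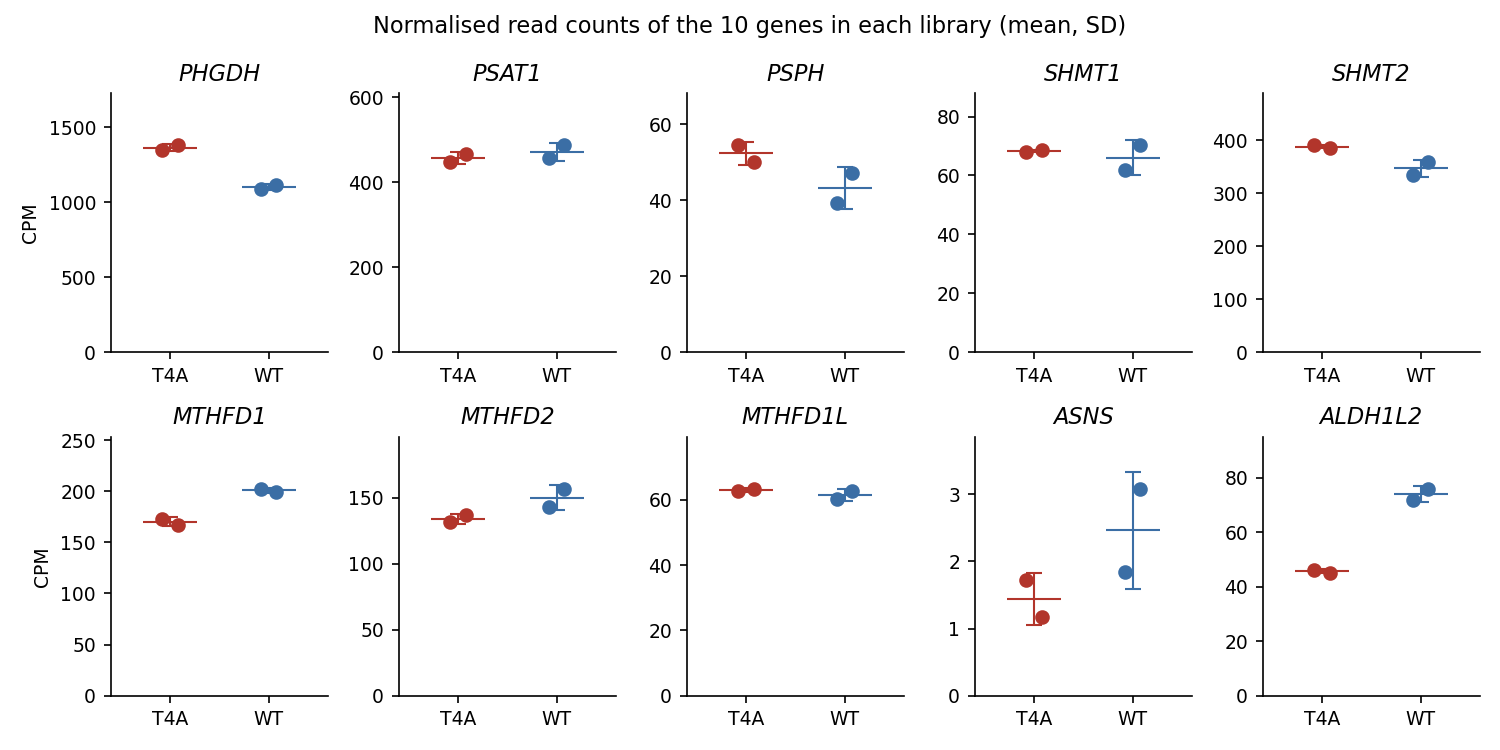
CPM of each of the 10 genes (vertical axes, each from 0) in the 2 T4A libraries (red, left) and the 2 WT libraries (blue, right), with the mean and SD of each group. The libraries of the groups are fully apart for PHGDH, PSPH, SHMT2, MTHFD1, MTHFD2, ALDH1L2 and ASNS, and ASNS lies near 1 to 3 CPM.

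PHGDH (ENSG00000092621.13, chromosome 1, 119711934 to 119744215), the first enzyme of serine synthesis, took more counts than any other of the 10 genes. It had 1349 and 1380 CPM in T4A libraries, against 1089 and 1115 CPM in WT libraries. Both T4A libraries were above both WT libraries, and the gap between the groups was larger than the spread within either. PHGDH rose 1.24-fold (log2 fold change 0.31 ± 0.03, SE, edgeR adjusted p = 4.86e-07). Its call was held in 14 of 15 alternative settings and lost when the change was tested against a fold of 1.2 (edgeR adjusted p = 0.172).

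PSAT1 (ENSG00000135069.14, chromosome 9, 78297125 to 78330093), the aminotransferase that follows PHGDH, did not pass the test. It had 447 and 467 CPM in T4A libraries, against 456 and 487 CPM in WT libraries, and the groups overlapped. The log2 fold change was −0.04 ± 0.04 (edgeR adjusted p = 0.520). PSPH (ENSG00000146733.14, chromosome 7, 56011064 to 56051444), the phosphatase of the last step, had 54.5 and 50.1 CPM in T4A libraries, against 39.4 and 47.1 CPM in WT libraries. PSPH rose 1.21-fold (log2 fold change 0.28 ± 0.09, edgeR adjusted p = 0.0336), with WT replicate 1 the lowest of the 4 libraries. Without that library its edgeR adjusted p was 0.440, and without T4A replicate 1 it was 0.111. The pseudogene PSPHP1 held 170 and 111 counts in T4A libraries and 149 and 72 counts in WT libraries, where PSPH held 1236 and 943 counts in T4A libraries and 1321 and 1207 counts in WT libraries. These are raw counts, and the WT libraries were deeper. As shares of a library, both T4A values of PSPHP1 were above both WT values, as for PSPH. Fragments shared by PSPH and PSPHP1 may have been counted for either, and the part of PSPHP1 in the PSPH result was not tested.

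Within each library, PHGDH held 3.01 and 2.96 counts for each PSAT1 count in T4A cells, against 2.39 and 2.29 in WT cells. This pair and PHGDH to PSPH were chosen after the values were seen. The log2 ratio of PHGDH to PSAT1 differed by 0.35 between T4A and WT, with no overlap. That of PHGDH to PSPH differed by 0.03, with the T4A and WT libraries interleaved. For each of the 6 ratios examined, 2 against 2 libraries cannot give an exact permutation p below 0.333.

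SHMT2 (ENSG00000182199.11, chromosome 12, 57229711 to 57234935), the mitochondrial serine hydroxymethyltransferase, had 391 and 386 CPM in T4A libraries, against 336 and 359 CPM in WT libraries. Both T4A libraries lay above both WT libraries. SHMT2 rose 1.12-fold (log2 fold change 0.16 ± 0.04, edgeR adjusted p = 0.00748). The call was lost without WT replicate 1 (edgeR adjusted p = 0.0965) and with library totals as the scaling (0.195). SHMT1 (ENSG00000176974.21, chromosome 17, 18327873 to 18363550), its cytosolic counterpart, had 68.1 and 68.6 CPM in T4A libraries, against 61.9 and 70.3 CPM in WT libraries. The SHMT1 groups overlapped, and its log2 fold change of 0.05 ± 0.08 did not pass the test (edgeR adjusted p = 0.713) and took the other sign with library totals and without WT replicate 1. SHMT2 held 5.74 and 5.63 counts for each SHMT1 count in T4A libraries, against 5.42 and 5.10 in WT libraries. The log2 ratio differed by 0.11 between T4A and WT, without overlap, and its exact permutation p (two-sided) of 0.333 is the smallest this design allows.

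ALDH1L2 (ENSG00000136010.14, chromosome 12, 105019790 to 105084458), the mitochondrial 10-formyltetrahydrofolate dehydrogenase, fell the most among the 6 called genes. It had 46.2 and 45.2 CPM in T4A libraries, against 71.9 and 76.0 CPM in WT libraries. The groups were far apart relative to their spread, at 45.7 ± 0.694 CPM in T4A and 74.0 ± 2.88 CPM in WT (SD, n = 2 each). The log2 fold change was −0.69 ± 0.08 (edgeR adjusted p = 1.00e-06), a level 0.619 times that of WT cells. It was called in all 15 alternative settings, with log2 fold changes from −0.77 to −0.36. ALDH1L1, the cytosolic paralog, was near the limit of detection, with 25 and 24 counts in T4A libraries, against 41 and 21 counts in WT libraries (edgeR adjusted p = 0.837). The ratio of ALDH1L2 to ALDH1L1 was 42.0 and 35.5 in T4A libraries, against 58.9 and 92.7 in WT libraries, and rests on those few ALDH1L1 counts.

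MTHFD1 (ENSG00000100714.18, chromosome 14, 64388353 to 64460025), the trifunctional enzyme of the cytosol, had 173 and 167 CPM in T4A libraries, against 202 and 199 CPM in WT libraries. Both T4A libraries lay below both WT libraries. MTHFD1 fell by 0.24 on the log2 scale (SE 0.05, edgeR adjusted p = 0.00104). Exons of other genes share 14.6% of its canonical transcript. MTHFD2 (ENSG00000065911.13, chromosome 2, 74198615 to 74217565), the mitochondrial dehydrogenase and cyclohydrolase, had 131 and 137 CPM in T4A libraries, against 143 and 157 CPM in WT libraries. The MTHFD2 groups were apart by less than the gap between the WT libraries, and MTHFD2 fell by 0.16 on the log2 scale (SE 0.06, edgeR adjusted p = 0.0454), close to the threshold. It was called in 7 of 15 alternative settings. Its call was lost with DESeq2 size factors (edgeR adjusted p = 0.0725), without T4A replicate 1 (0.147) and without WT replicate 2 (0.437). Of the canonical MTHFD2 transcript, 36.8% is shared with exons of other genes, chiefly SLC4A5 on the other strand, which held 3 and 27 counts in T4A libraries and 27 and 10 counts in WT libraries.

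MTHFD1L (ENSG00000120254.16, chromosome 6, 150865702 to 151101887), the mitochondrial formyltetrahydrofolate synthetase, had 62.7 and 63.4 CPM in T4A libraries, against 60.2 and 62.7 CPM in WT libraries. The MTHFD1L groups overlapped, with WT replicate 2 just above T4A replicate 1. The log2 fold change was 0.04 ± 0.07 (edgeR adjusted p = 0.786), with the other sign under library totals. The MTHFD1L to MTHFD1 ratio was 0.362 and 0.379 in T4A libraries, against 0.298 and 0.315 in WT libraries, a difference of 0.28 on the log2 scale with no overlap (exact permutation p = 0.333). The MTHFD2 to MTHFD1 ratio was 0.759 and 0.819 in T4A libraries, against 0.708 and 0.788 in WT libraries, and these overlapped (exact permutation p = 0.667). MTHFD2L, a paralog of MTHFD2, had 4.27 and 4.63 CPM in T4A libraries, against 3.70 and 4.61 CPM in WT libraries (edgeR adjusted p = 0.831).

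**Figure D2:**
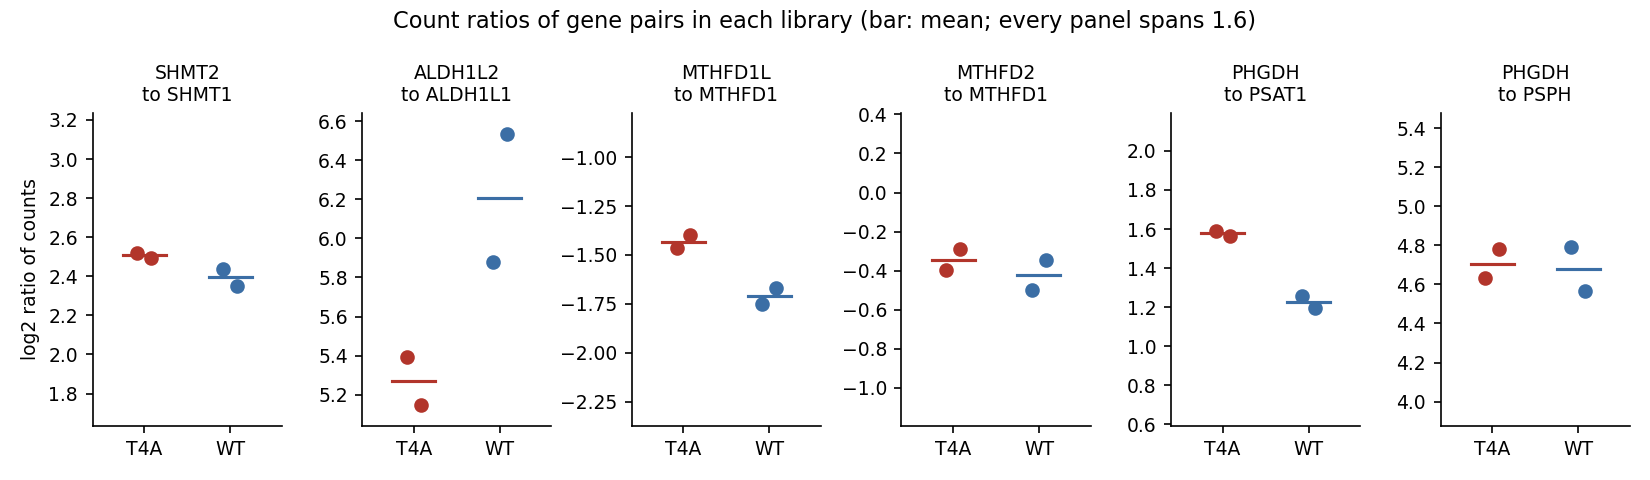
Log2 ratio of the counts of 2 genes within each library (vertical axes, each spanning 1.6), for T4A (red, left) and WT (blue, right), with bars at the group means. The libraries of T4A and WT are apart for SHMT2 to SHMT1, ALDH1L2 to ALDH1L1, MTHFD1L to MTHFD1 and PHGDH to PSAT1, and interleaved for MTHFD2 to MTHFD1 and PHGDH to PSPH.

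ASNS (ENSG00000070669.17, chromosome 7, 97851677 to 97928441) had 39 and 22 counts in T4A libraries, against 62 and 79 counts in WT libraries, or 1.72 and 1.17 CPM against 1.85 and 3.08 CPM. Both T4A libraries were below both WT libraries, but the log2 fold change of −0.75 ± 0.40 did not pass the test (edgeR adjusted p = 0.205). Whether these counts measure ASNS mRNA cannot be told. Of the 2385 bases of its canonical transcript, 2374 (99.5%) lie also in exons of ENSG00000284707, a long noncoding gene on the same strand, which itself held only 10 and 6 counts in T4A libraries and 15 and 22 counts in WT libraries. No source used here states the rule for fragments that lie over 2 genes. Neither the level of ASNS nor its difference between T4A and WT can therefore be read from these files.

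Together the 10 genes held 2725 and 2765 CPM in T4A libraries, against 2462 and 2575 CPM in WT libraries. PHGDH made up 49.5 and 49.9% of that sum in T4A libraries, against 44.3 and 43.3% in WT libraries. Without PHGDH the sum was 1381 ± 6.54 CPM in T4A and 1416 ± 62.5 CPM in WT (SD, n = 2 each), a gap smaller than the WT spread.

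Levels can be compared between genes only per length. Per kilobase of canonical transcript, PHGDH was highest, at 731 ± 11.7 CPM per kilobase in T4A cells and 591 ± 9.68 in WT cells (SD, n = 2 each), followed by PSAT1 (207 ± 6.19 in T4A and 214 ± 9.95 in WT) and SHMT2 (180 ± 1.59 in T4A and 161 ± 7.54 in WT). MTHFD1 (54.0 ± 1.35 in T4A and 63.7 ± 0.707 in WT), MTHFD2 (30.5 ± 0.875 in T4A and 34.1 ± 2.18 in WT), SHMT1 (27.0 ± 0.128 in T4A and 26.1 ± 2.35 in WT), PSPH (26.5 ± 1.55 in T4A and 21.9 ± 2.77 in WT) and MTHFD1L (18.3 ± 0.157 in T4A and 17.8 ± 0.507 in WT) lay in the middle, and SHMT1 and PSPH overlapped in T4A cells but not in WT cells. ALDH1L2 was low, at 6.16 ± 0.0934 CPM per kilobase in T4A cells and 9.96 ± 0.387 in WT cells. Per kilobase of all annotated exons, PSAT1 (207 ± 6.19 in T4A and 214 ± 9.95 in WT) stood above PHGDH (148 ± 2.37 in T4A and 120 ± 1.97 in WT), since the annotated exons of PHGDH add up to 9187 bases and its canonical transcript to 1866. With either length, PHGDH, PSAT1 and SHMT2 were the 3 highest and ALDH1L2 the lowest of the 9 genes other than ASNS, in T4A and WT cells alike.

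Fold changes across all genes moved with transcript length, and the members differ in length. When all genes were put into 5 bins by the length of the canonical transcript, the median log2 fold change was 0.28 in the shortest bin and −0.33 in the longest. PHGDH (1866 bases), PSPH (1974), SHMT2 (2157) and PSAT1 (2206) fall in the same bin, from 1257 to 2209 bases, whose median was 0.17. MTHFD1 (3154) falls in a bin with a median of 0.03, MTHFD1L (3451) and MTHFD2 (4403) in one with −0.15, and ALDH1L2 (7428) in the longest bin, where 36.9% of genes fell. With this trend removed, in an alternative chosen after seeing the data, PHGDH still rose (log2 fold change 0.17, edgeR adjusted p = 0.00116), and ALDH1L2 (−0.36, 0.00257) and MTHFD1 (−0.21, 0.00577) still fell. PSPH (0.15, 0.325), SHMT2 (0.06, 0.394) and MTHFD2 (−0.01, 0.966) were no longer called, and PSAT1 was called lower (−0.14, 0.0267). Relative to genes of its length, PHGDH was thus higher and PSAT1 lower in T4A cells. With the trend taken over all annotated exons, PHGDH, ALDH1L2 and SHMT2 kept their calls, PSAT1 was again called lower (−0.21, 0.00114) and MTHFD1 lost its call (0.08, 0.336).

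**Figure D3:**
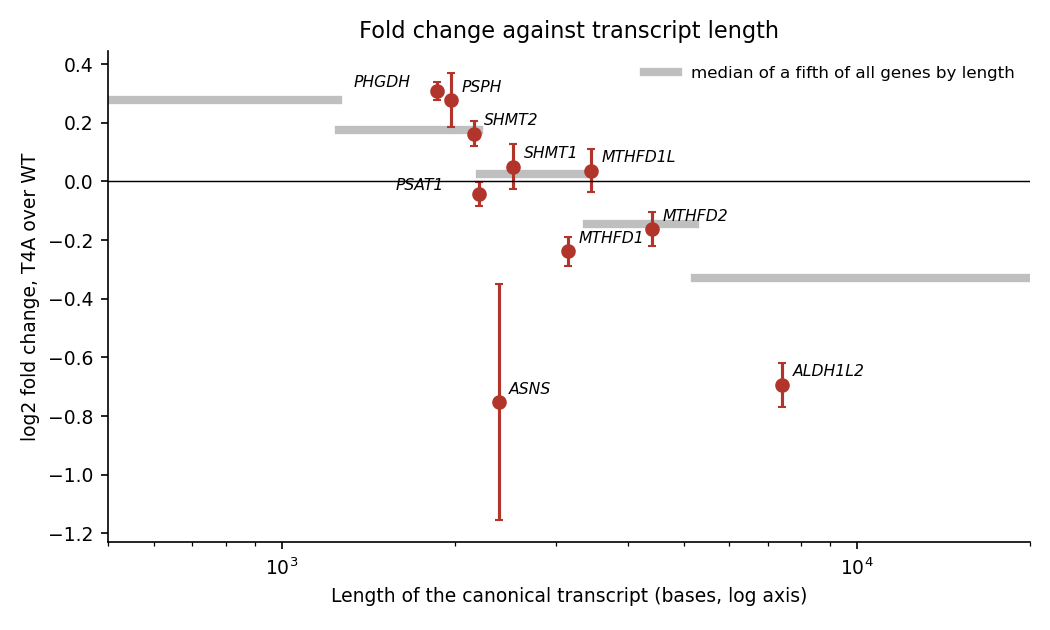
Log2 fold change of T4A over WT (vertical axis, bars are standard errors) of the 10 genes against the length of the canonical transcript (horizontal log axis, bases), with grey bars for the medians of all genes in 5 length bins. The medians run from 0.28 to −0.33, PHGDH, PSPH and MTHFD1L lie above the medians of their bins by more than their standard errors, and PSAT1, MTHFD1, ASNS and ALDH1L2 lie below theirs by more than their standard errors.

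**Figure D4:**
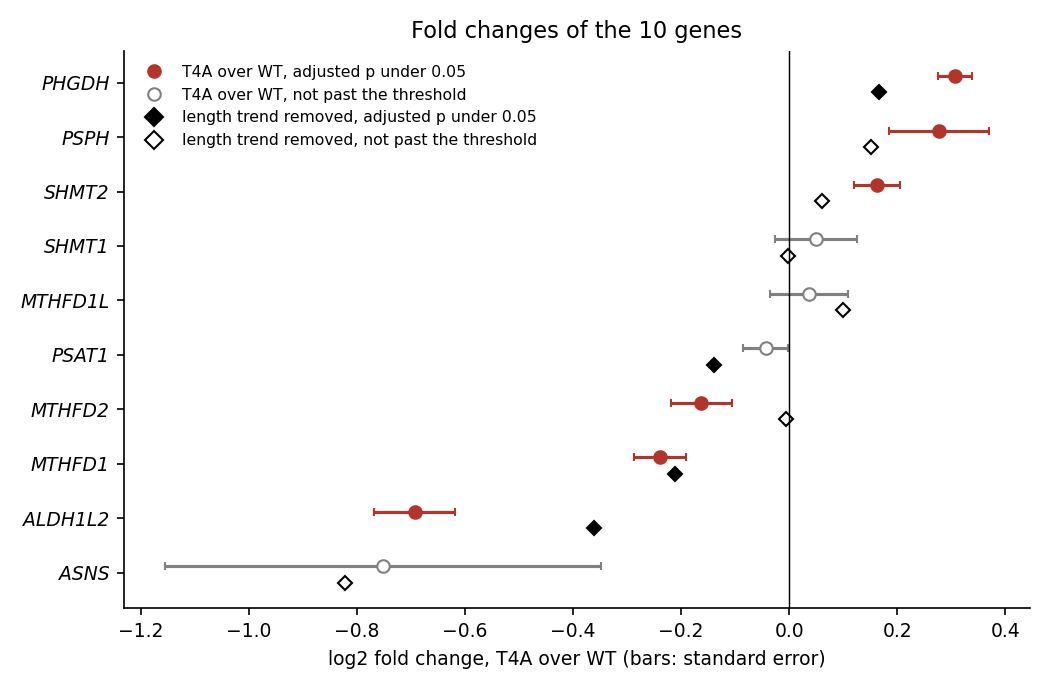
Log2 fold change of T4A over WT (horizontal axis) of the 10 genes, with circles and standard errors for the edgeR fit and diamonds for the fit with the trend on canonical transcript length removed. Filled marks passed an adjusted p of 0.05, which PHGDH, MTHFD1 and ALDH1L2 did in both fits.

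To place the members in their pathway, 8 lists of neighbouring genes were examined, chosen with earlier results of these data known. Of their 99 genes, 91 were tested, 17 rose (18.7%, against 10.7% of all genes) and 21 fell (23.1%, against 13.0%). Their median log2 fold change was 0.01, against −0.0066 for all genes. With the trend on canonical transcript length removed, 12 rose and 14 fell. The counts of each list below are to be read beside the same shares of all genes, and they are no test of a list.

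Of 13 tested genes among the other folate enzymes and carriers, 4 rose and 1 fell, with a median log2 fold change of 0.13. Those that rose were GGH, which removes glutamates from folates (204 and 211 CPM in T4A libraries, against 178 and 170 CPM in WT libraries, edgeR adjusted p = 6.20e-04), FPGS, which adds them (log2 fold change 0.25 ± 0.07), the folate carrier SLC19A1 (0.43 ± 0.10) and MTFMT, which formylates the mitochondrial initiator tRNA (0.46 ± 0.13). Without 1 library, the edgeR adjusted p of FPGS was 0.152 (T4A replicate 2) and 0.149 (WT replicate 2), that of MTFMT 0.176 (T4A replicate 1) and 0.170 (WT replicate 1), and that of SLC19A1 0.0642 (T4A replicate 1). With the trend on canonical transcript length removed, GGH (log2 fold change 0.04, edgeR adjusted p = 0.668) and FPGS (0.17, 0.156) were no longer called.

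Of 5 tested genes of glycine cleavage and glycine entry into the folate pool, DLD, a subunit shared with other mitochondrial dehydrogenases, fell (log2 fold change −0.19 ± 0.05, edgeR adjusted p = 0.00417, and 0.0967 with the trend on canonical transcript length removed) and 4 were not called. GLDC, the decarboxylase of the glycine cleavage system, had 37.0 and 37.8 CPM in T4A libraries, against 43.3 and 42.8 CPM in WT libraries (edgeR adjusted p = 0.0907). Of 10 tested genes listed for the methionine cycle and transsulfuration, 4 fell and 1 rose, with a median of −0.23. The list includes AHCYL1 and AHCYL2, whose part in the cycle was not tested, so the median describes the list and not the pathway. MAT2A, which makes S-adenosylmethionine, had 84.8 and 83.6 CPM in T4A libraries, against 120 and 112 CPM in WT libraries (log2 fold change −0.46 ± 0.06, edgeR adjusted p = 1.32e-05). AHCYL2 (−0.90 ± 0.10), AHCYL1 (−0.39 ± 0.05) and methionine synthase MTR (−0.31 ± 0.08) fell as well, whereas AHCY, which hydrolyses S-adenosylhomocysteine, rose (0.13 ± 0.04, edgeR adjusted p = 0.0193). The edgeR adjusted p of MTR was 0.143 without WT replicate 1, and that of AHCY was 0.133 without T4A replicate 1 and 0.101 without WT replicate 2. With the trend on canonical transcript length removed, MTR changed sign (0.12, edgeR adjusted p = 0.403) and AHCY was no longer called (0.03, 0.726), and MTR also changed sign with the trend on exonic length removed (0.02, 0.903).

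Of the 8 genes of de novo purine synthesis, which uses 10-formyltetrahydrofolate, 3 fell and 5 were not called, with a median of −0.15. They were GART, which carries 1 of the formyl transfers (69.8 and 72.7 CPM in T4A libraries, against 92.4 and 94.2 CPM in WT libraries, edgeR adjusted p = 1.55e-04), PPAT, the first committed enzyme (log2 fold change −0.32 ± 0.11), and PRPS1, which makes its substrate (−0.15 ± 0.04). Without 1 library, the edgeR adjusted p of PPAT was 0.335 (T4A replicate 1) and 0.198 (WT replicate 2), and that of PRPS1 0.0585 (T4A replicate 2) and 0.0666 (WT replicate 2), and PPAT was not called with the canonical length trend removed (0.174). ATIC, which carries the other formyl transfer, did not pass the test (0.02 ± 0.07, edgeR adjusted p = 0.911). Of 17 tested genes that transport or use serine, glycine and asparagine, 2 rose and 3 fell. SLC1A5, a carrier of neutral amino acids, had 64.8 and 59.6 CPM in T4A libraries, against 46.3 and 50.01 CPM in WT libraries (log2 fold change 0.37 ± 0.08), and PTDSS2, a phosphatidylserine synthase, rose by a log2 fold change of 0.41 ± 0.12. The amino acid carrier SLC38A1 fell (−0.62 ± 0.10), as did SPTLC2 (−0.63 ± 0.11) and SPTLC1 (−0.23 ± 0.06), subunits of the enzyme that joins serine to palmitate. The edgeR adjusted p of PTDSS2 was 0.408 without WT replicate 2, and that of SPTLC1 was 0.0744 without T4A replicate 2. With the trend on canonical transcript length removed, SLC38A1 (log2 fold change −0.27, edgeR adjusted p = 0.0955), SPTLC2 (−0.27, 0.103) and PTDSS2 (0.35, 0.0702) were no longer called. SPTLC1 kept its call there (−0.25, 0.00756), but with the trend on exonic length removed it was at 0.0026 (0.986). SFXN1, the mitochondrial serine carrier, had 261 and 271 CPM in T4A libraries, against 277 and 279 CPM in WT libraries (edgeR adjusted p = 0.344).

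Of 10 tested genes of glutamine, glutamate, aspartate and proline synthesis, 2 rose and 3 fell. PYCR1 rose (log2 fold change 0.23 ± 0.04), and ALDH18A1, which acts before it, fell (−0.28 ± 0.05). GLUD1, glutamate dehydrogenase, fell as well (−0.19 ± 0.04). With the trend on exonic length removed, GLUD1 changed sign (0.096, edgeR adjusted p = 0.123) and PYCR1 was no longer called (0.11, 0.104). With that on canonical transcript length removed, both kept their calls (GLUD1 −0.14, edgeR adjusted p = 0.0235, and PYCR1 0.14, 0.0357).

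ATF4 had 182 and 191 CPM in T4A libraries, against 150 and 139 CPM in WT libraries, so that all T4A values were above all WT values. ATF4 rose 1.29-fold (log2 fold change 0.37 ± 0.05, edgeR adjusted p = 3.32e-05). With the trend on canonical transcript length removed, its log2 fold change was 0.18 (edgeR adjusted p = 0.0363). Tested against a fold of 1.2, ATF4 was not called (edgeR adjusted p = 0.0751). With its regulators and other targets it forms a list of 22 genes, all tested, of which 8 rose and 5 fell, with a median of 0.19. Over all genes tested, 10.7% rose and 13.0% fell. The list was chosen with earlier results of these data known, so its counts are no test of it. The stress factor ATF3 had 28.6 and 32.4 CPM in T4A libraries, against 15.7 and 15.03 CPM in WT libraries (0.99 ± 0.11, edgeR adjusted p = 1.17e-06). SLC3A2, the heavy chain of amino acid exchangers (0.38 ± 0.06), and CEBPB, a partner of ATF4 (0.79 ± 0.16), also rose. SLC7A11, the cystine carrier, fell (−0.72 ± 0.19), as did EIF2AK2 (−0.49 ± 0.11), EIF2AK1 (−0.22 ± 0.05) and EIF2AK4 (−0.37 ± 0.09), eIF2α kinases that act before ATF4. These 4 calls were lost with the trend on canonical transcript length removed (edgeR adjusted p = 0.305, 0.715, 0.507 and 0.391 in the same order), and that of SLC7A11 also without WT replicate 1 (0.125). Among the members, PHGDH, PSPH and SHMT2 rose, as ATF4 did, whereas PSAT1 and MTHFD1L were not called and ALDH1L2, MTHFD1 and MTHFD2 were lower. With the trend on canonical transcript length removed, PSPH (edgeR adjusted p = 0.325), SHMT2 (0.394) and MTHFD2 (0.966) were no longer called. PSAT1 was then called lower (0.0267). Of 6 other known regulators of the members, SP1 fell, with 13.4 and 12.3 CPM in T4A libraries, against 22.8 and 23.3 CPM in WT libraries (−0.84 ± 0.12, edgeR adjusted p = 2.21e-05), and 5 were not called. MYC had 4.67 and 3.61 CPM in T4A libraries, against 2.68 and 3.05 CPM in WT libraries (edgeR adjusted p = 0.187).

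**Figure D5:**
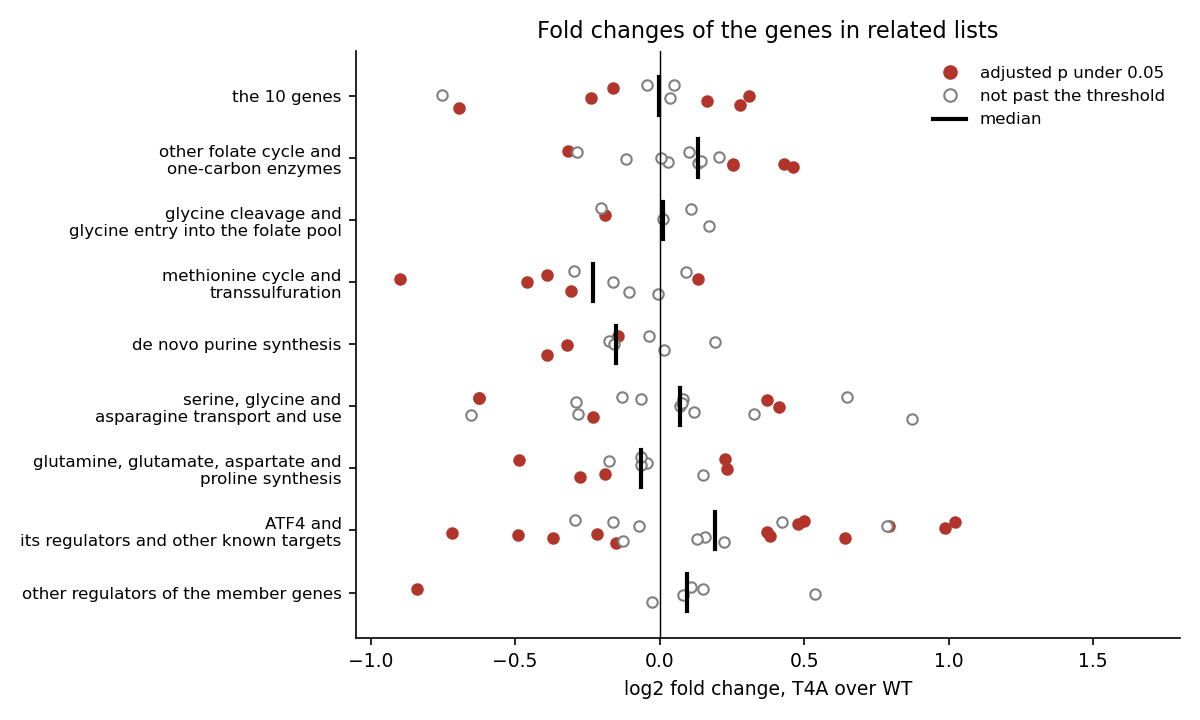
Log2 fold change of T4A over WT (horizontal axis) of the 10 genes and of the tested genes in 8 related lists (rows), with filled points for an adjusted p under 0.05 and a black bar at each median. The medians run from −0.23 for the methionine cycle list, which includes AHCYL1 and AHCYL2, to 0.19 for the ATF4 list. They are not adjusted for transcript length. Each list but those of glycine cleavage, purine synthesis and other regulators held called genes on both sides.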

How the data were processed

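Poly(A) RNA-seq libraries, 2 T4A and 2 WT, were made with the NEBNext Ultra kit. The submitters' notes list Trimmomatic 0.38 with HISAT2 2.2.1 on hg38 and featureCounts 2.0.1, and the study's methods describe unstranded alignment. Each deposited table holds raw fragment counts per gene, not normalized or pooled. Without strand, overlapping genes cannot be told apart. GENCODE release 44 gave names (60877 of 62700 identifiers), lengths and exon overlaps. It was used as lifted to the human genome build before hg38, so lengths and overlaps may differ slightly on hg38. RefSeq GRCh38.p14 gave coordinates and promoters.

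Counts were filtered with filterByExpr and compared in edgeR 4.0.16 (R 4.3.3) with TMM, glmQLFit, glmQLFTest and Benjamini-Hochberg adjustment over 18139 genes, and the code was checked on simulated counts. SE is the log2 fold change over the square root of F. The common biological coefficient of variation was 0.114. The test used a spread for each gene, moderated across genes (prior degrees of freedom 17.0). The members and lists were chosen with earlier results of these data known. The text names all members, POLR2A, ATF4, ALDH1L1, MTHFD2L, up to 4 called genes per list and direction with the smallest p, and pseudogenes or overlapping genes with at least 10 counts that bear on a member. A few called list genes under this rule are not reported here. GLDC, ATIC, SFXN1 and MYC were added after their values were seen. A planned comparison of protein sequences was not made. Alternatives were DESeq2 size factors, upper quartile scaling and library totals, 2 other filters, DESeq2 1.42.0, limma-voom (limma 3.58.1), testing against a fold of 1.2, blocking on replicate, omitting each library, and removing length trends.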

Additional observations from a re-analysis of the deposited data

How the results depend on the processing

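Over the 15 alternatives, ALDH1L2 kept its call in 15, PHGDH in 14, MTHFD1 in 13, SHMT2 in 11, PSPH in 9 and MTHFD2 in 7, and the cause was not tested where a call was lost. Over all genes, 596 rose and 980 fell when tested against a fold of 1.2, compared with 1935 and 2351 against no change. With the trend on exonic length removed 1420 fell, and with that on canonical length 1036 fell. Among members, 1 rose with library totals, 1 with the canonical length trend removed and 0 against a fold of 1.2 (edgeR's glmTreat, 1 at an unadjusted p under 0.05), where 1 fell, and leaving out each library gave 1 to 3. Among related lists, 3 rose and 8 fell against a fold of 1.2, and 13 fell with upper quartile scaling. With the canonical trend removed, 13 of 36 other named genes lost their call. The log2 fold change turned for PSAT1 with upper quartile scaling (0.040), for SHMT1 with library totals (−0.028) and the canonical trend removed (−0.0017), for MTHFD1L with library totals (−0.041), and with the exonic trend removed for MTHFD1 (0.075), MTHFD2 (0.086), MTR (0.021, and 0.12 with the canonical one), SPTLC1 (0.0026) and GLUD1 (0.096). Leaving out single libraries gave −0.034 (without WT replicate 1) to 0.139 for SHMT1, −0.047 (without WT replicate 2) to 0.537 for ALDH1L1, −0.045 (without WT replicate 1) to 0.261 for MTHFD2L and −0.083 (without WT replicate 2) to 0.142 for the log2 ratio of PHGDH to PSPH. DESeq2 gave no adjusted p for ASNS. With a replicate block, 3 members rose and 3 fell, 17 and 21 list genes did, and over all genes 2012 and 2432 did. Deviations of same-numbered libraries correlated at r = −0.0038, so the numbers were not taken as pairs. ALDH1L1 counts are low, which limits the size of change detectable.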
